A study of Homo sapiens with 18 samples.

Results

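Human chromosome 19 carries the densest collection of C2H2 zinc finger genes in the genome, and 183 of them, with symbols made of ZNF and a number, were measured above a low level in hTERT RPE-1 cells. They were taken from the 58051 gene identifiers of the deposited tables as the ZNF genes that GENCODE release 29 (GRCh38) places on chromosome 19 and that had a mean of at least 1 CPM (a gene's count divided by the library's total, per 1000000 counts) over the 18 libraries. Of 241 such ZNF genes at any level on the chromosome, 183 met the level. A further 202 ZNF genes on other chromosomes and 717 other genes of chromosome 19 met the same level and served for comparison. The genes were thus chosen by their mean level, and the levels below are a description.

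The proteins they encode bind DNA through tandem zinc fingers, each a short loop in which a pair of cysteines and a pair of histidines hold a zinc ion. Most of the family on this chromosome also carry a KRAB box near the N terminus, which recruits the corepressor TRIM28 (KAP1) and, through it, the histone methyltransferase SETDB1, heterochromatin proteins of the CBX family and the NuRD complex. Many of these proteins silence transposable elements, and the genes lie in clusters that grew by tandem duplication, so that neighbours resemble each other. Messenger RNAs of zinc finger transcription factors are known as short-lived as a class.

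The study asked about topoisomerase II and the methylation of adenosines in messenger RNA, per its title, and used RNA-seq to follow RNA after transcription had been blocked. hTERT RPE-1 is a line of retinal pigment epithelial cells immortalised with telomerase. All 6 groups were grown in 10% serum and starved in 0.1% serum for 48 h, and the labels place the cells in G0/G1. Per the labels' protocols, the etoposide arm received 50 µM etoposide, which traps topoisomerase II on cleaved DNA, for 30 min, while the sample titles name the other arm DMSO. Both arms then entered a series with 10 µM triptolide, an inhibitor of the TFIIH subunit XPB that blocks transcription, sampled at time points 0, 20 and 40. The labels give no unit for these numbers and do not say whether triptolide was present at 0, so they are used as names. Each group holds 3 libraries, numbered 1 to 3 in the titles and said to be independent. The p-values measure the spread between these samples of 1 cell line.

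Libraries held 7957691 to 11580219 counts, so that 3 counts, taken as the floor of detection, corresponded to 0.259 to 0.377 CPM. Of 8 retinal pigment epithelium markers 5 averaged at least 1 CPM, namely the keratins KRT8 (697 CPM) and KRT18 (655 CPM), the pigment cell regulator MITF (43.1 CPM), PMEL (1.56 CPM) and BEST1. BEST1 averaged 142 CPM but ran from 0.522 to 2450 CPM, the highest in replicate 2 of DMSO at 0. RLBP1 averaged 0.843 CPM, and RPE65 and TYR were near 0, at 0.152 and 0.0115 CPM. Of 5 fibroblast markers 3 averaged at least 1 CPM, namely COL1A1 (36.4 CPM), PDGFRA (23.6 CPM) and DCN (2.84 CPM). Of 4 markers of other epithelia and 5 of blood 0 did, and of 2 endothelial markers PECAM1 did (1.07 CPM). CDH1, KRT5 and HBB had no count in any library. Replicate 2 of DMSO at 0 stood apart, with 1.42% of its counts on antisense-type genes against 0.217 to 0.253% elsewhere, and replicate 2 of etoposide at 20 had the fewest detected genes (17854). Both are left out as an alternative below. The libraries of replicate 3 also differ in their column headings, and some genes are near 0 in them alone, but all 183 ZNF genes had counts in all 18 libraries. The levels are shares of each library's RNA, and in bulk samples fewer cells and less RNA per cell cannot be told apart.

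The finger unit is the part that these genes have in common. For each of 5 of the 7 genes called below, 1 unit of coding sequence is shown, 84 bases long. The codons of the paired cysteines and paired histidines are in capitals. The sequences come from the GENCODE 29 transcripts (GRCh38), 5′ to 3′ on the coding strand.
ZNF574: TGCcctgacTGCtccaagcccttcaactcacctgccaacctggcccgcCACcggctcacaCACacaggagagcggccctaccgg
ZNF526: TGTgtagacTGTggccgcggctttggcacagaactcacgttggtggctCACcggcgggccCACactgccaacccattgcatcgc
ZNF227: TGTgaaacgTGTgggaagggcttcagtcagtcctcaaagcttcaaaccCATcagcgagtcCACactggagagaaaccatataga
ZNF607: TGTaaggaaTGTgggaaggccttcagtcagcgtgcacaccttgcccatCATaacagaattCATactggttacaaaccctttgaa
ZNF134: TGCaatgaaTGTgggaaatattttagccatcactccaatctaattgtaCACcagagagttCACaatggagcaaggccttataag
Each unit lies in the last coding exon of its transcript. That of ZNF574 is at chr19:42080179-42080262 in exon 2 of 2, that of ZNF526 at chr19:42225487-42225570 in exon 3 of 3, and that of ZNF227 at chr19:44235994-44236077 in exon 6 of 6, all on the plus strand. The ZNF607 unit is at chr19:37698781-37698864 on the minus strand in exon 5 of 5, and the ZNF134 unit at chr19:57620903-57620986 on the plus strand in exon 3 of 3. Within a gene, neighbouring units had a median nucleotide identity of 69.0% over the 178 genes with adjacent units.

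All 183 genes were protein coding. A KRAB box was found in the translated transcripts of 156 and not in 27. The median gene encoded 12 fingers, 13 with a KRAB box and 9 without. ZNF91, a repressor of SVA retrotransposons, had the most with 32, while no finger was found in the annotated transcript used for ZNF738. Their transcripts had few exons, with a median of 4 against 9 over 12165 tested protein-coding genes. The longest exon made up a median of 86.0% of the mRNA of the ZNF genes and 52.1% of that of all tested protein-coding genes. Their 3′ UTRs had a median length of 1463 bases against 1134, with 1.95 against 1.68 ATTTA pentamers per kb, the core of AU-rich decay elements. The pentamer GGACT, one form of the site at which adenosine methylation occurs, stood at 0.717 per kb of mRNA against 0.930. The median GC content was 42.4% against 48.6%.

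The genes were expressed at low levels. Mean CPM ran from 1.02 to 76.2 with a median of 6.22 and quartiles of 3.71 and 11.2, and 17 genes reached 20 CPM. The highest were ZNF146 (OZF, a protein made almost only of fingers) at 76.2 CPM and ZNF83 at 61.3 CPM, followed by ZNF580 at 40.3, ZNF358 at 36.9, ZNF428 at 36.3 and ZNF561 at 32.8 CPM. Per kb of exon ZNF428 led with 20.1 CPM per kb, followed by ZNF146 with 18.4, and the median was 1.16 CPM per kb. Genes with a KRAB box had a median of 1.02 CPM per kb and those without one 3.61 CPM per kb. Just inside the chosen level were ZNF233 at 1.13, ZNF433 at 1.04 and ZNF724 at 1.02 CPM, and just outside it ZNF497 at 0.993, ZNF563 at 0.979 and ZNF573 at 0.947 CPM. All 183 genes passed the filter on low counts and were tested.

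Part of the family is hard to count separately. For 11 genes over 20% of the exonic sequence was made of 50-base stretches that also occur in other genes, with ZNF320 (75.2%) and ZNF468 (55.8%) the most affected. For 16 genes over 20% of the exonic bases overlapped another gene, among them ZNF428 and ZNF224, which overlap genes on the opposite strand. How the counting treated strand and repeated matches is not given in the sources used here, so the values of these genes are uncertain. None of the 16 genes called with the replicate block below exceeded 20% on either measure. Of those called without the block, ZNF227 had 19.1% of its exonic bases overlapping ZNF235 on the opposite strand, and ZNF607 had 12.5% shared with an annotated gene on its own strand.

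Together the 183 genes took up less of the RNA at 40 than at 0 in both arms. Their summed level in the DMSO arm was 1744, 1773 and 1768 CPM at 0 in replicates 1, 2 and 3, then 1868, 1634 and 1787 CPM at 20, and 1512, 1525 and 1664 CPM at 40. In the etoposide arm it was 1837, 1778 and 1935 CPM at 0, 1684, 1820 and 1720 CPM at 20, and 1571, 1573 and 1614 CPM at 40. In each arm all 3 libraries of 40 lay below all 3 of 0, and those of 20 overlapped the libraries of 0. The means were 1762 ± 15.5 CPM at 0 and 1567 ± 84.3 CPM at 40 with DMSO, and 1850 ± 79.3 and 1586 ± 24.3 CPM with etoposide (SD, n = 3). The genes took up 0.151 to 0.194% of a library's counts.

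**Figure D1:**
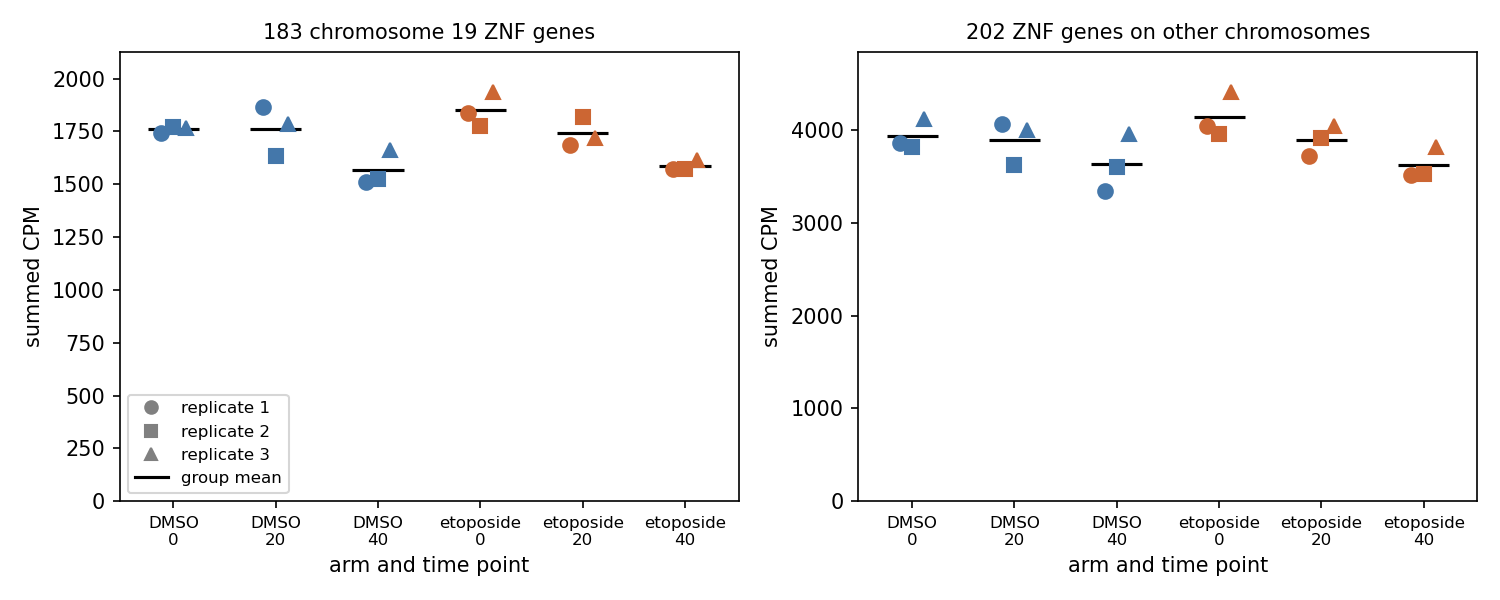
Summed CPM (y axis, from 0) of the 183 chromosome 19 ZNF genes (left) and the 202 ZNF genes on other chromosomes (right) in each library, by arm and time point (x axis). Symbols mark the replicate number and lines the group means. On the left the libraries of 40 lie at 1512 to 1664 CPM with DMSO and 1571 to 1614 CPM with etoposide, below those of 0 in the same arm.

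Most of the family lay on the lower side at 40. The fold changes that follow are log2 changes from edgeR's quasi-likelihood fit of all 18 libraries, each relative to the library's other RNA. With DMSO the median log2 change from 0 to 40 was −0.175 and 131 of 183 genes were negative, against a median of 0.006 over all 14186 tested genes. With etoposide the median was −0.247 and 152 of 183 were negative, against 0.003 over all tested genes. With both arms averaged it was −0.219, with quartiles of −0.445 and −0.068, and 149 genes negative, against 0.012 over all tested genes, of which 46.2% were negative. The averaged change was under −0.5 for 37 ZNF genes, under −1 for 2, and above 0.5 for 0. Within replicates 1, 2 and 3 the median difference between 40 and 0 was −0.218, −0.272 and −0.082 with DMSO and −0.275, −0.220 and −0.316 with etoposide.

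The ZNF genes of other chromosomes moved in the same direction, with a median averaged change of −0.143 and 159 of 202 negative. Among them the 96 in which a KRAB box was found had a median of −0.186, and the 105 in which none was found −0.121 (1 gene was not scored). With DMSO 146 of the 202 were negative (median −0.104), and with etoposide 163 (−0.196). The other genes of chromosome 19 had a median averaged change of 0.023, with 297 of 707 negative. By arm these differed, with 486 of 707 negative with DMSO (median −0.054) and 200 with etoposide (0.089). A reference list of 14 short-lived messages such as MYC, SOCS3 and ADM had a median of −1.82, and 12 of its 14 genes were called lower. That list was chosen with earlier results of these data known and is given for scale.

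**Figure D2:**
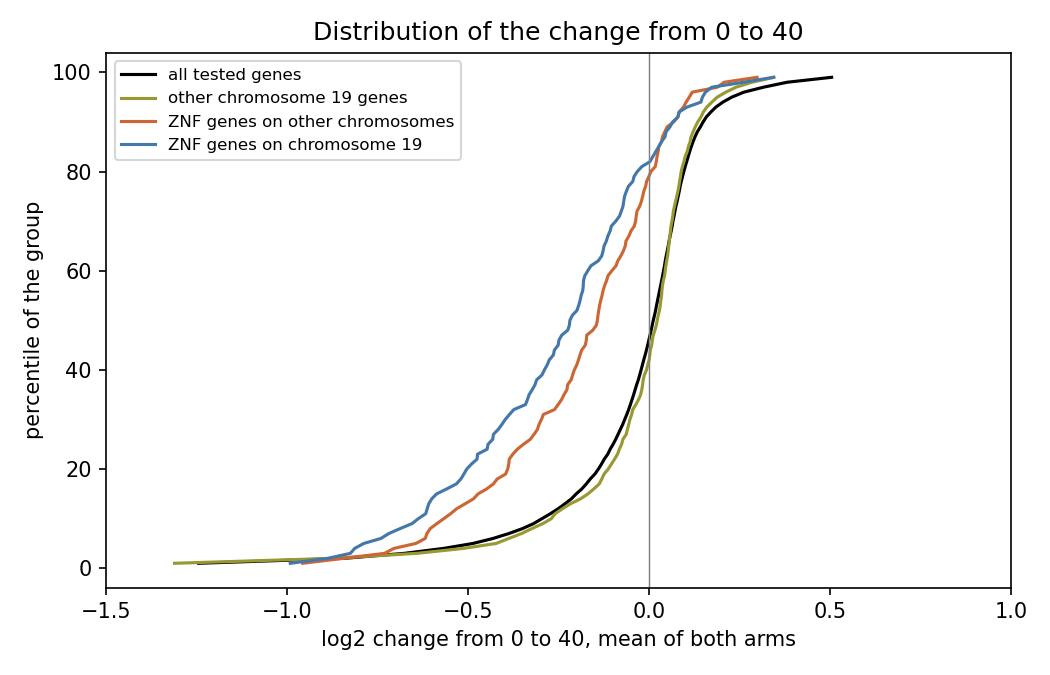
Percentiles (y axis) of the log2 change from 0 to 40 averaged over both arms (x axis) for the chromosome 19 ZNF genes, the ZNF genes of other chromosomes, the other chromosome 19 genes and all tested genes. The median was −0.219 for the chromosome 19 ZNF genes, −0.143 for ZNF genes elsewhere, 0.023 for other chromosome 19 genes and 0.012 for all tested genes.

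Single genes were called at a Benjamini-Hochberg adjusted p below 0.05 over all tested genes. In the averaged comparison 7 of the 183 genes were called lower and 0 higher, against 0.916% of all tested genes, all lower. Because same-numbered libraries deviated together, the replicate number was also fitted as a block, and 16 were then called lower and 0 higher, against 2.31% of all tested genes called lower and 2.32% in either direction. All 7 were among the 16. Of the 202 ZNF genes on other chromosomes, 7 were called lower in the averaged comparison and 20 with the block. With DMSO alone 0 of the 202 were called and 10 with the block, and with etoposide alone 0 and 4. With DMSO alone ZNF574 and ZNF526 were called, 2 genes against a background of 0.423%, and with the block 4 (ZNF416 and ZNF134 in addition) against 1.21% lower and 1.22% in either direction. With etoposide alone ZNF574 was called, 1 gene against a background of 0.204%, and with the block 5 (ZNF227, ZNF304, ZNF607 and ZNF230 in addition) against 1.01%. At an unadjusted p below 0.05, edgeR found 42 of 183 (23.0%) in the averaged comparison against 4.91% of all tested genes, 28 (15.3%) with DMSO against 4.06%, and 27 (14.8%) with etoposide against 3.04%. Among the 202 ZNF genes elsewhere these counts were 41 averaged, 29 with DMSO and 26 with etoposide. DESeq2 called 10 of the 183 in the averaged comparison against 1.48% of all tested genes, and limma-voom called 7 against 0.881%. Leaving out 1 library at a time left 3 to 7 calls in the averaged comparison, 1 to 2 with DMSO and 0 to 1 with etoposide. The 3 calls came without replicate 2 of DMSO at 40, or replicate 2 or 3 of etoposide at 40. With DMSO it was 1 without any of the libraries but replicate 3 at 0, and with etoposide 0 without any but replicate 3 at 0. Without replicate 3 in every group, ZNF574 alone was called in the averaged comparison. Without the pair of libraries that stood apart, ZNF555, ZNF574, ZNF526 and ZNF134 were called there (4 genes), and 15 with the block. The share of all tested genes called is not given here for the fits that left out libraries.

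ZNF574 (ENSG00000105732, chr19:42068477-42081549, plus strand) encodes a protein with 18 fingers and no KRAB box and gave the clearest change. With DMSO it stood at 20.6, 19.4 and 22.9 CPM at 0, at 21.8, 25.1 and 21.4 CPM at 20, and at 9.64, 9.89 and 10.5 CPM at 40. With etoposide it stood at 24.3, 25.8 and 21.9 CPM at 0, at 20.6, 17.6 and 25.3 CPM at 20, and at 13, 12.8 and 11.6 CPM at 40. The libraries of 40 lay far below those of 0 and of 20 in both arms, and those of 0 and 20 overlapped. Its averaged log2 change from 0 to 40 was −0.99 (SE 0.105, adjusted p = 4.61e-05 by edgeR). It was called in each of the 12 fits that left out 1 library of 0 or 40.

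Its neighbour ZNF526 (ENSG00000167625, chr19:42220271-42228201, plus strand), with 13 fingers and no KRAB box, is the next member along the chromosome. DMSO libraries gave 10.6, 12.1 and 10.6 CPM at 0, 10.7, 7.05 and 8.90 CPM at 20, and 4.77, 5.34 and 5.77 CPM at 40. Etoposide libraries gave 7.09, 8.49 and 10.4 CPM at 0, 7.0, 9.49 and 8.29 CPM at 20, and 5.99, 4.46 and 4.83 CPM at 40. Again no library of 40 reached those of 0 in its arm, and the libraries of 20 overlapped those of 0 in both arms and lay above those of 40. The averaged log2 change was −0.90 (SE 0.142, adjusted p = 0.00268 by edgeR), and it too was called in each of the 12 fits that left out 1 library. Alone, the etoposide arm gave −0.73 (SE 0.201, adjusted p = 0.357), which was not called.

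ZNF134 (ENSG00000213762, chr19:57614233-57624723, plus strand) is the third called gene in which no KRAB box was found, with 10 fingers. In the DMSO arm it measured 25.1, 26.6 and 22.7 CPM at 0, 24.1, 22.2 and 20.5 CPM at 20, and 15.5, 14.7 and 15.3 CPM at 40. In the etoposide arm the values were 20.3, 29.2 and 25.3 CPM at 0, 25.5, 33.5 and 19.6 CPM at 20, and 19.4, 17.1 and 14 CPM at 40. The groups of 0 and 40 did not overlap in either arm, though with etoposide the gap was narrow (20.3 against 19.4 CPM). The averaged log2 change was −0.61 (SE 0.133, adjusted p = 0.0320 by edgeR). It was called in 3 of the 12 fits that left out 1 library (replicate 3 of DMSO at 0, or replicate 1 of etoposide at 0 or 40), with edgeR adjusted p from 0.0208 to 0.103, and in all 12 with the replicate block.

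The other 4 called genes encode a KRAB box. ZNF227 (ENSG00000131115, chr19:44207547-44237268, plus strand), with 18 fingers, measured 12.7, 14.8 and 12.1 CPM at 0, 11.4, 10.7 and 11.5 CPM at 20, and 7.39, 9.28 and 10.5 CPM at 40 with DMSO. With etoposide it measured 12.8, 16 and 13 CPM at 0, 11.4, 12.1 and 10.2 CPM at 20, and 7.63, 9.75 and 8.02 CPM at 40. Every library of 20 lay between the libraries of 0 and those of 40 in its arm. Its averaged log2 change was −0.61 (SE 0.118, adjusted p = 0.0143 by edgeR). Leaving out replicate 1 of etoposide at 40 raised the adjusted p to 0.0535, and the other 11 such fits called it.

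ZNF607 (ENSG00000198182, chr19:37696363-37719790, minus strand), also with 18 fingers, read 5.82, 5.82 and 6.31 CPM at 0, 4.46, 4.76 and 6.39 CPM at 20, and 3.37, 2.63 and 4.72 CPM at 40 with DMSO. With etoposide it read 8.72, 6.27 and 7.51 CPM at 0, 4.09, 5.42 and 5.03 CPM at 20, and 4.36, 3.01 and 4.39 CPM at 40. In the etoposide arm the libraries of 20 were already below all those of 0. The averaged log2 change was −0.82 (SE 0.173, adjusted p = 0.0281 by edgeR), and 2 of 12 fits called it when 1 library was left out (replicate 3 of DMSO at 40 or replicate 2 of etoposide at 0). The adjusted p was 0.0137 to 0.101 in these edgeR fits, and with the block 12 of 12 called it.

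ZNF555 (ENSG00000186300, chr19:2841435-2860484, plus strand) was the called gene farthest towards the short-arm end, with 15 fingers and an mRNA of 8557 bases. DMSO libraries held 3.64, 2.63 and 3.58 CPM at 0, 3.07, 3.35 and 2.52 CPM at 20, and 2.34, 2.28 and 1.47 CPM at 40. Etoposide libraries held 3.83, 4.85 and 4.14 CPM at 0, 4.0, 3.44 and 4.27 CPM at 20, and 2.45, 1.76 and 1.65 CPM at 40. All libraries of 40 were below all of 0 in both arms, and those of 0 and 20 overlapped. The averaged log2 change was −0.88 (SE 0.186, adjusted p = 0.0277 by edgeR), and 4 of 12 fits called it when 1 library was left out (replicate 2 of DMSO at 0, replicate 1 of DMSO at 40, or replicate 1 of etoposide at 0 or 40). The adjusted p was 0.0284 to 0.101 in these edgeR fits, and with the block 12 of 12 called it.

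ZNF230 (ENSG00000159882, chr19:44002948-44013926, plus strand), with 7 fingers, had the most negative averaged change of the family and a mean of 2.57 CPM, below the lower quartile. It read 1.66, 4.11 and 3.05 CPM at 0, 3.07, 2.64 and 3.68 CPM at 20, and 1.97, 1.31 and 0.734 CPM at 40 with DMSO. With etoposide it read 4.5, 3.74 and 2.85 CPM at 0, 3.27, 3.44 and 2.39 CPM at 20, and 1.27, 1.25 and 1.32 CPM at 40. The groups of 0 and 40 overlapped with DMSO and were apart with etoposide. The averaged log2 change was −1.30 (SE 0.264, adjusted p = 0.0206 by edgeR), and 6 of 12 fits called it when 1 library was left out. The call was lost without replicate 2 of DMSO at 0 or 40, replicate 1 of etoposide at 0, or any etoposide library of 40, with adjusted p of up to 0.0705, and with the block edgeR called it in 12 of 12.

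**Figure D3:**
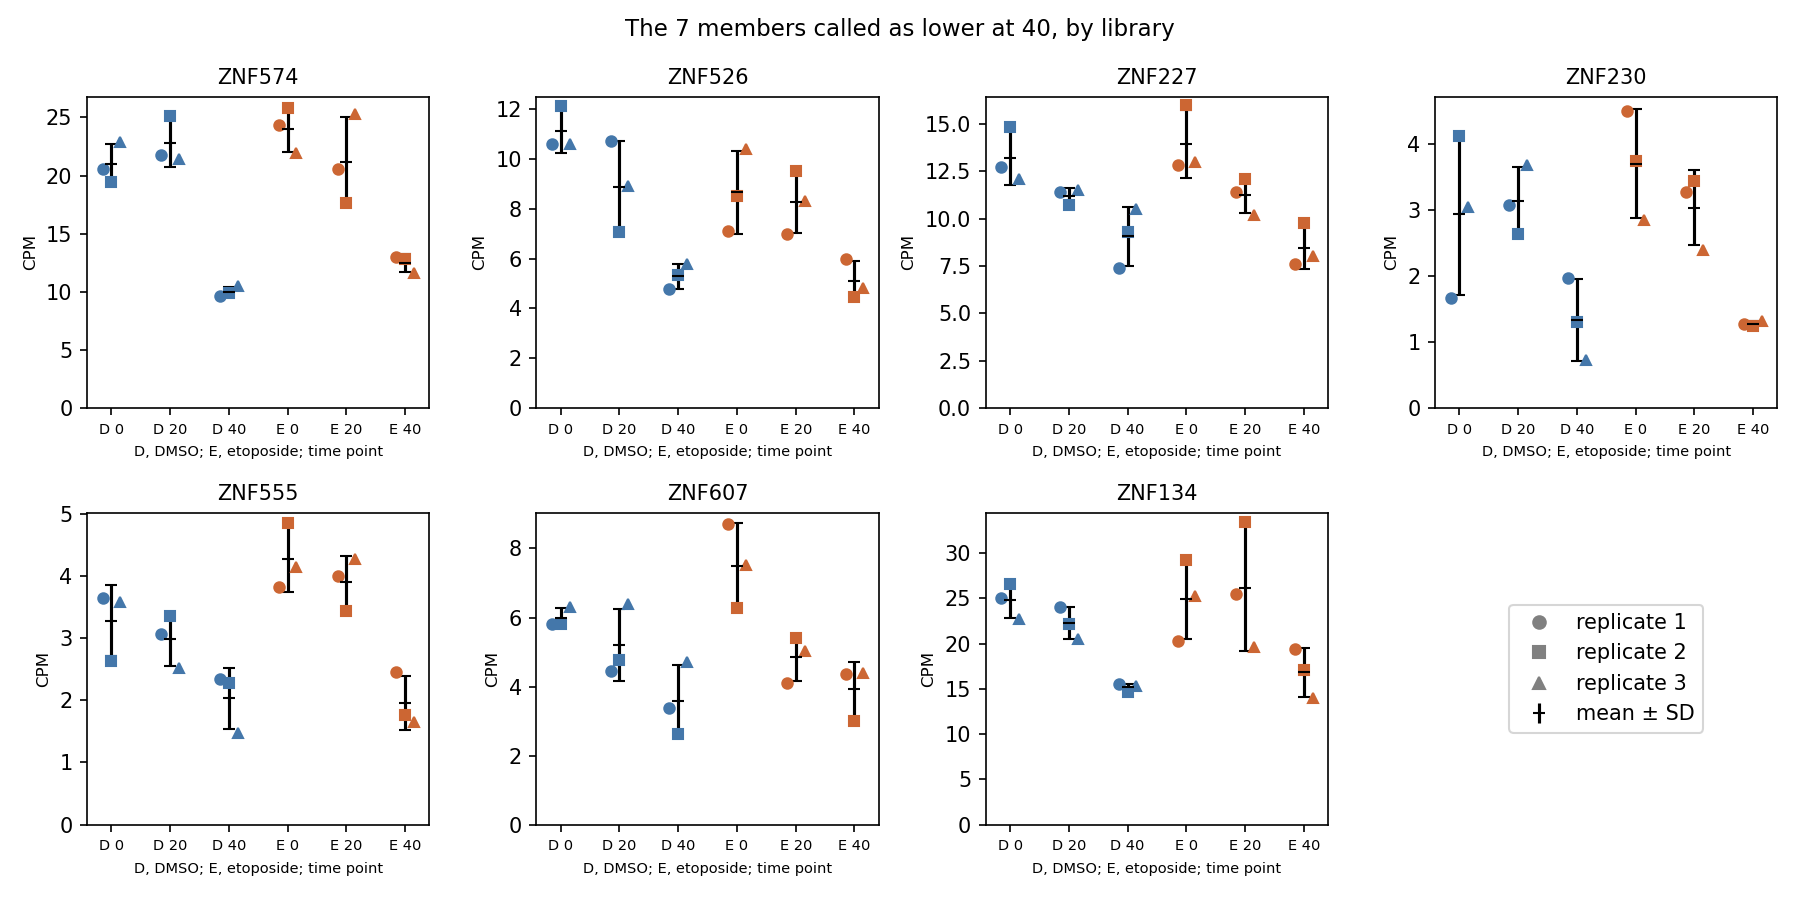
CPM (y axis, from 0) of the 7 called genes in each library, by arm (D, DMSO in blue; E, etoposide in orange) and time point (x axis), with the mean ± SD of 3 libraries. In 6 of the 7 panels the libraries of 40 lie below those of 0 in both arms, and ZNF230 overlaps with DMSO.

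The block added 9 genes, all with a KRAB box. ZNF304, which recruits repressive complexes to the INK4-ARF locus in tumour cells, had the smallest adjusted p of the 9, with 12.5, 12.1 and 9.99 CPM at 0 and 8.70, 7.53 and 6.92 CPM at 40 with DMSO. With etoposide it had 13.8, 16.1 and 10.4 CPM at 0 and 8.99, 8.72 and 4.61 CPM at 40. Replicate 3 was the lowest of its group at each of these points, and within each replicate the level at 40 was below that at 0. The averaged log2 change with the block was −0.70 (SE 0.134, adjusted p = 0.00270 by edgeR), and without it −0.69 (SE 0.210, adjusted p = 0.259). ZNF416 had 4.26, 5.59 and 2.73 CPM at 0 and 1.31, 2.01 and 1.57 CPM at 40 with DMSO, and 4.12, 6.87 and 3.45 CPM at 0 and 3.91, 2.59 and 2.20 CPM at 40 with etoposide. The groups were apart with DMSO and overlapped with etoposide, and the averaged change with the block was −0.99 (SE 0.192, adjusted p = 0.00322 by edgeR). The other 7 were ZNF211 (−0.60), ZNF225 (−0.74), ZNF548 (−0.65), ZNF606 (−0.58), ZNF419 (−0.51), ZNF671 (−0.55) and ZNF792 (−0.83 on the log2 scale with the block), with edgeR adjusted p from 0.0042 to 0.0489.

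Counted without a model, 38 of the 183 genes (20.8%) had all 3 DMSO libraries of 40 below all 3 of 0, against 4.63% of all tested genes. With etoposide it was 45 genes (24.6%) against 5.85%, and 20 genes (10.9%) did so in both arms against 1.78%. The opposite pattern, all libraries of 40 above all of 0, was seen for ZNF559 alone with DMSO, against 1.59% of all tested genes, and for ZNF444 alone with etoposide, against 1.97%. ZNF559 measured 12.1, 11 and 10.7 CPM at 0 and 14.8, 14.1 and 12.5 CPM at 40 with DMSO, and its averaged log2 change was 0.16. ZNF444 measured 24.7, 25 and 24.6 CPM at 0 and 29.6, 29.6 and 30.8 CPM at 40 with etoposide, and its averaged change was 0.14. Neither was called, nor was ZNF507, the highest averaged change among genes of at least 5 CPM, at 0.18.

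Members with known roles stood on both sides of the median. ZNF91 had an averaged log2 change of −0.39, ZNF93, which represses LINE-1 elements, −0.12, and ZNF420 (APAK), a regulator of p53, −0.47. ZNF274, which binds the 3′ ends of zinc finger genes themselves and brings SETDB1 to them, had a change of 0.03, the imprinted gene ZNF331 of 0.05, and ZNF224 of −0.09. ZNF473 (ZFP100), a factor of histone pre-mRNA processing, had −0.19, and the most abundant gene ZNF146 had 0.02. None of these 8 was called. The 115 genes of at least 5 CPM had a median averaged change of −0.191 and the 68 below it −0.289. Over the 183 genes, which share their libraries, Spearman's rho between mean CPM and averaged change was 0.27, and between number of exons and change 0.203. With the number of fingers it was −0.127, with GGACT per kb −0.126, with ATTTA per kb of 3′ UTR −0.05 and with the length of the longest exon 0.027.

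Along the chromosome the changes were uneven. The 26 genes that start between 7 and 14 Mb had a median averaged change of −0.073 and 0 of them were called with the block, while 8 genes there were positive. The 22 genes between 43 and 51 Mb, among them ZNF230, ZNF225 and ZNF227, had a median of −0.36 with 21 of 22 negative, and 3 called with the block. Between 14 and 26 Mb, the cluster of ZNF91 and ZNF93, the median was −0.269, with 0 of 20 called, and between 26 and 43 Mb it was −0.254 with 4 of 29 called. From 51 Mb the median was −0.215 and 8 of 82 were called with the block. All 8, namely ZNF304, ZNF548, ZNF419, ZNF416, ZNF134, ZNF211, ZNF671 and ZNF606, start between 57 and 59 Mb, where 37 of the 82 lie. That stretch is not among the windows and was picked out because the called genes lie there. Without the block 1 gene from 51 Mb was called, ZNF134. Below 7 Mb there were 4 genes and 1 was called. Over all tested genes 2.32% were called with the block in either direction and 0.916% without it. At such shares 0 calls among 20 or 26 genes do not set a window apart. The windows were not tested against each other.

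**Figure D4:**
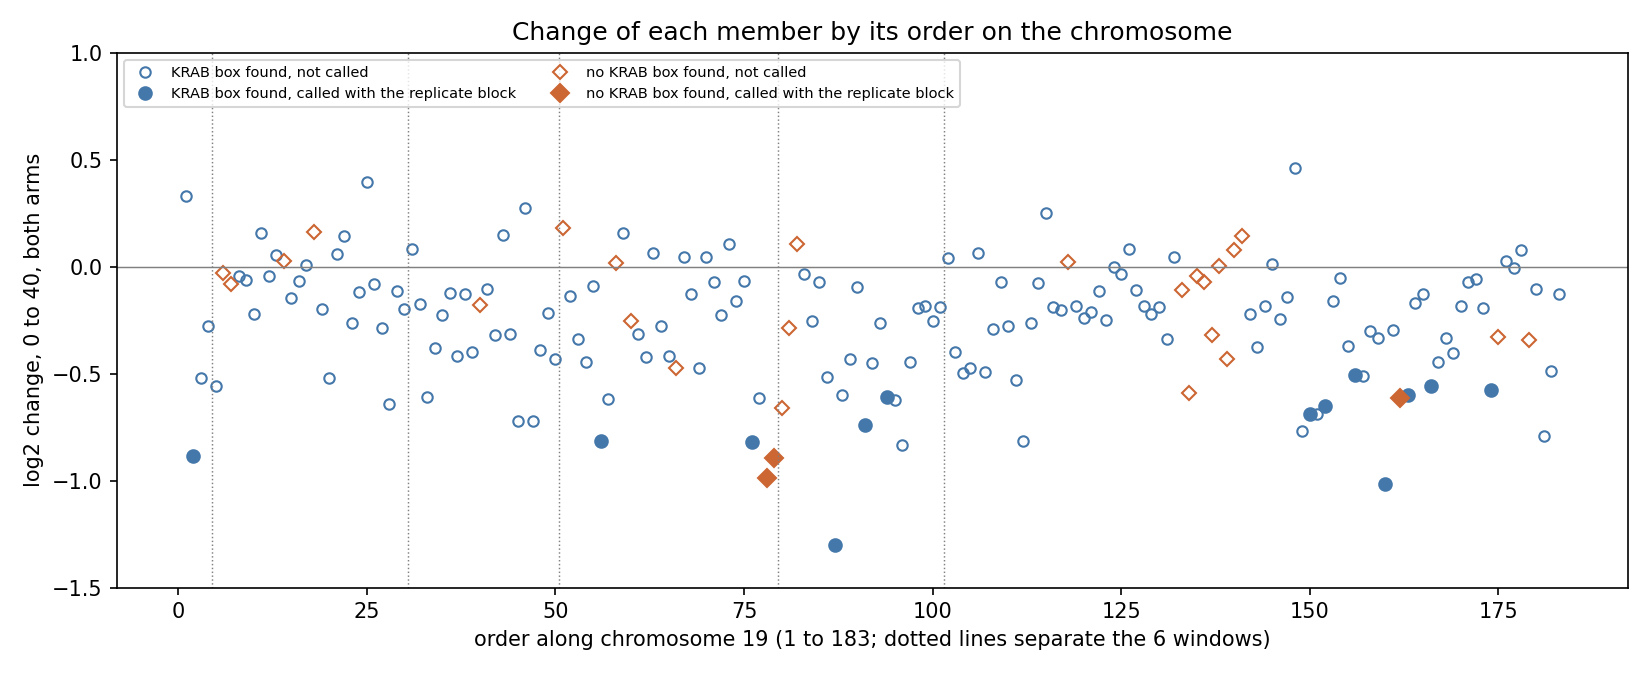
Log2 change from 0 to 40 averaged over both arms (y axis) of the 183 genes in their order along chromosome 19 (x axis, 1 to 183), with circles for a KRAB box, diamonds for none and filled symbols for the 16 genes called with the replicate block. Dotted lines separate the 6 windows, whose medians run from −0.073 (second window) to −0.399 (first window, 4 genes).

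Genes with a KRAB box had a median averaged change of −0.22 with 131 of 156 negative, and those without one −0.11 with 18 of 27 negative. With DMSO the medians of the groups were −0.175 and −0.176, and with etoposide −0.254 and −0.05. The groups also differed in base composition, with a median GC content of 42.2% with and 61.3% without a KRAB box. Across all tested genes the change from 0 to 40 went with transcript GC content in opposite directions in the arms, with a Spearman's rho of −0.283 with DMSO and 0.291 with etoposide over 14153 genes of the same libraries, and −0.005 for the arms averaged. When a curve of each library's deviation against GC content was taken out, an alternative chosen after seeing the data, the medians with etoposide were −0.183 with and −0.145 without a KRAB box, and those with DMSO −0.204 and −0.08. The medians over all 183 genes were then −0.182 with DMSO, −0.177 with etoposide and −0.196 averaged, with 8 genes called in the averaged comparison against 1.15% of all tested genes, and 20 with the block against 2.81%. One of the 20, ZNF324, is among those with over 20% of shared stretches.

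At 20 no ZNF gene was called. Relative to 0 the median log2 change was −0.009 with DMSO, −0.065 with etoposide and −0.047 averaged, and 96, 117 and 111 of 183 genes were negative. edgeR called 0 genes of all tested (0%) in each of these comparisons, and DESeq2 and limma-voom called 0 ZNF genes. At an unadjusted p below 0.05, edgeR found 2 (1.09%), 2 (1.09%) and 3 (1.64%) of the 183 genes, against 1.4%, 1.0% and 1.33% of all tested genes. With the block, 0 ZNF genes were called in the averaged comparison against 0.0634% of all tested genes, and 8 (4.37%) had an unadjusted p below 0.05 against 2.69%.

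Etoposide was then compared with DMSO. No ZNF gene was called at 0, at 20, at 40 or over the averaged time points by edgeR, DESeq2 or limma-voom, and edgeR called 0% of all tested genes. Unadjusted p-values below 0.05 were given by edgeR to 4, 3, 6 and 6 of the 183 genes (2.19%, 1.64%, 3.28% and 3.28%), against 2.66%, 0.761%, 0.98% and 1.77% of all tested genes. With the block it was 10, 5, 14 and 15 (5.46%, 2.73%, 7.65% and 8.2%), against 6.22%, 2.5%, 3.51% and 5.27%. With the block 0 were called, against 0.00705% of all tested genes at 40, 0.0282% averaged and 0% at 0 and 20. The median log2 difference, etoposide minus DMSO, was 0.072 at 0 with 111 genes positive, −0.019 at 20, −0.013 at 40 and 0.027 averaged, against −0.006, 0.003, −0.005 and −0.007 over all tested genes. At 0, all etoposide libraries lay above all DMSO libraries for 13 genes (7.1%) against 4.03% of all tested genes, and below for 6 (3.28%) against 2.34%. At 40 the counts were 15 above (8.2%) against 2.63% and 8 below (4.37%) against 1.51%. The etoposide arm started with a summed level of 1850 ± 79.3 CPM and reached 1586 ± 24.3 CPM at 40, next to 1567 ± 84.3 CPM with DMSO, and the libraries of 40 overlapped between the arms.

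ZNF57, a KRAB gene of 13 fingers below 7 Mb, had the smallest unadjusted p of the family in the averaged comparison without the block. It measured 2.08, 1.94 and 1.89 CPM at 0, 2.04, 2.38 and 2.03 CPM at 20, and 0.842, 1.49 and 0.629 CPM at 40 with DMSO, and 2.39, 2.22 and 1.99 CPM at 0, 4.45, 2.61 and 2.26 CPM at 20, and 1.91, 2.49 and 1.76 CPM at 40 with etoposide. At 40 the arms did not overlap. The averaged log2 difference was 0.56 (SE 0.195, adjusted p = 1.0 by edgeR), and at 40 it was 1.03 (SE 0.348, adjusted p = 1.0). With the block the smallest unadjusted p of the averaged comparison was that of ZNF154, 0.006 against 0.00712 for ZNF57 by edgeR. ZNF154 measured 9.10, 6.27 and 6.99 CPM with etoposide against 5.20, 4.22 and 3.37 CPM with DMSO at 0. Its groups did not overlap there, and the log2 difference was 0.78 (SE 0.297, adjusted p = 1.0 by edgeR). Neither gene was called, and time point 0 was chosen for ZNF154 after its values were seen.

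The change from 0 to 40 was not called as different between the arms for any ZNF gene. The median interaction, the change with etoposide minus that with DMSO, was −0.044 with 102 of 183 negative, against −0.006 over all tested genes, and edgeR, DESeq2 and limma-voom called 0 (0% of all tested genes). At an unadjusted p below 0.05 there was 1 gene (0.546%) against 1.34% of all tested genes, and 9 (4.92%) with the block against 3.42%. The 1 gene was ZNF471, with 6.66, 6.74 and 7.78 CPM at 0 and 7.58, 7.26 and 8.28 CPM at 40 with DMSO, and 8.62, 6.47 and 8.55 CPM at 0 and 4.90, 4.88 and 6.59 CPM at 40 with etoposide. At 40 its etoposide libraries were all below its DMSO libraries, and the interaction was −0.64 (SE 0.281, adjusted p = 1.0 by edgeR). With the curve against GC content taken out, the median interaction over the 183 genes was 0.019 and the median difference at 40 was 0.052, both with the opposite sign to those above. By arm, 116 genes were negative in both, 16 positive in both, 15 negative with DMSO only and 36 with etoposide only. The arms' changes had a Spearman's rho of 0.386 over the 183 genes, which share their libraries.

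**Figure D5:**
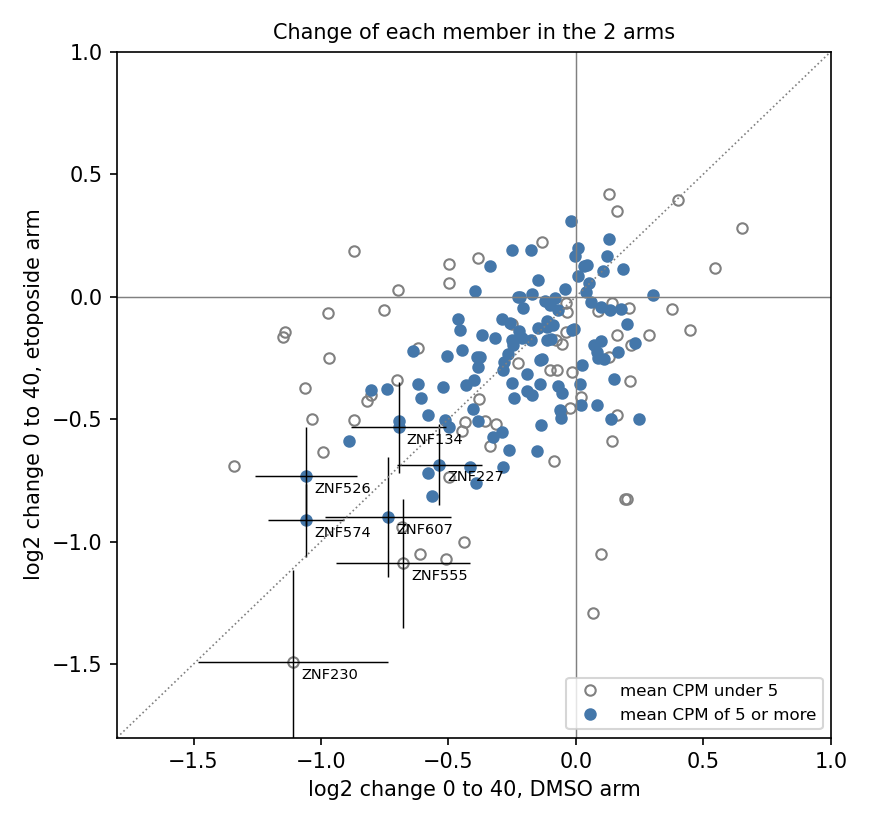
Log2 change from 0 to 40 of each of the 183 genes with DMSO (x axis) and with etoposide (y axis), with bars of 1 SE on the 7 called genes and a dotted line of equal change. Of the 183 points, 116 lie in the lower left part, where both changes are negative, and 102 lie below the line of equal change.

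None of the partners of the KRAB box was called. A list of 33 genes held TRIM28, SETDB1, CBX, NuRD, HUSH and DNA methylation factors, and all 33 were tested. From 0 to 40 edgeR called 0 of them with DMSO, with etoposide or averaged, against 0.423%, 0.204% and 0.916% of all tested genes. At these shares 0 calls among 33 genes do not mark the list out. At an unadjusted p below 0.05 edgeR found 0 without the block. With the block it found 1 with etoposide, on the higher side, and 1 averaged, on the lower side. Their median averaged log2 change was 0.035, with 23 of 33 positive. TRIM28, the corepressor itself, averaged 365 CPM with a change of 0.04 (SE 0.079), and SETDB1 31.2 CPM with −0.01 (SE 0.124). DAXX had the largest spread of the list (SE 1.26), with a level under 1 CPM in all libraries of replicate 3 and 21.4 to 31.5 CPM in the others. GATAD2B, a NuRD subunit, was next (SE 0.702), at 0.659 to 1.89 CPM in replicate 3 and 3.37 to 8.45 CPM in the others.

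The promoters of the ZNF genes were compared with those of other genes, and whether their motifs went with the change was not tested. A RefSeq (GRCh38.p14) promoter window, 250 bases before to 50 after the start, was found for 165 of the 183 genes. The letters CCGGAAG, on either strand, a core recognised by ETS factors, occurred in 74 of the 165 windows (44.8%), against 39.5% of 172 windows of ZNF genes elsewhere, 19.8% of 9974 windows of tested protein-coding genes and 10.7% of all 27305 windows. TATAAA was in 2.42% of them, against 4.65% for ZNF genes elsewhere, 5.21% for tested protein-coding genes and 12% of all windows. AAGATGG, a core of YY1 sites, was in 7.88%, against 6.98%, 7.68% and 6.06%. An NRF1 motif was in 1.82%, against 3.49%, 2.32% and 1.36%. Each was searched on either strand, with overlaps between motifs kept. Of the 16 genes called with the block, 7 held CCGGAAG, namely ZNF230, ZNF548, ZNF419, ZNF416, ZNF134, ZNF671 and ZNF606. Over all 165 windows the share was 44.8%. The 16 were not limited to genes with a window, and whether the called genes differ was not tested. The median number of CpG in the window was 22 for the ZNF genes, 26 for tested protein-coding genes and 14 for all windows. The 250 bases before the start are shown for 3 called genes, with CCGGAAG or its reverse complement in capitals where present, 5′ to 3′ on the gene's strand, which is plus for all 3. They are chr19:44002707-44002956 for ZNF230, chr19:57613992-57614241 for ZNF134 and chr19:42068227-42068476 for ZNF574, whose window from 250 bases before to 50 after the start holds none of these letters and 6 CpG.
ZNF230: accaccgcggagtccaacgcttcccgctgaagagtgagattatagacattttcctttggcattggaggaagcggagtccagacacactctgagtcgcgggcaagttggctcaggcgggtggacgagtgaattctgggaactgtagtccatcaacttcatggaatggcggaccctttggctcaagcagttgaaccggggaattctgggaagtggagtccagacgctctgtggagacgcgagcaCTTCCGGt
ZNF134: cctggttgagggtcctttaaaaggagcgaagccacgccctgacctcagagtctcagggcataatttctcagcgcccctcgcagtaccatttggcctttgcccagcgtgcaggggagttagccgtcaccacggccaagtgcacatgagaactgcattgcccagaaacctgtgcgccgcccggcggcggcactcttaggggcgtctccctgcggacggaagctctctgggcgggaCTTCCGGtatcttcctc
ZNF574: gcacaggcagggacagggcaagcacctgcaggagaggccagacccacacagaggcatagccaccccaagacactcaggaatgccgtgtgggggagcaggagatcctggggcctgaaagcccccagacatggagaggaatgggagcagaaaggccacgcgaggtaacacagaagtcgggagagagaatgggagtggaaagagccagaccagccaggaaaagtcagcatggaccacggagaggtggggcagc
The match is a description of these letters in these windows and not a measured binding site.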

How the data were processed

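Gene-level read counts were deposited by the authors for each of the 18 libraries, unscaled and in whole numbers. The submitters' processing notes list bcl2fastq, HISAT2 and featureCounts, and the build GRCh38 (hg38). Their versions, the annotation and the strand setting were not given in the sources used here. A stranded kit for mRNA is named in the labels' protocols. Column headings of the replicate 3 files carry a suffix that the others lack, per the file headers.

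Of 58051 identifiers, 57447 matched GENCODE 29, from which positions were taken. Counts were tested with edgeR 4.0.16 (R 4.3.3, robust quasi-likelihood, TMM factors) in 1 model of 6 groups, over 14186 genes that passed edgeR's filter and held 99.84% of counts. The p-values were adjusted by Benjamini-Hochberg over all of them, and 11 comparisons were made. The averaged comparison gives both arms equal weight. DESeq2 1.42.0, limma 3.58.1 (voom), the replicate block, other scalings, no filter and leaving out libraries were alternatives. The test was also run on simulated counts. These had no shared deviation of same-numbered libraries and only changes larger than the median of the ZNF genes, so that run does not cover either feature of these data.

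Replicate numbers come from the labels. The 45 pairs of same-numbered libraries correlated in their deviations from the group means at r = 0.359 to 0.911 over all tested genes, each above the minimum of 0.1. The main fit did not use this pairing, which entered only the fits with the replicate block. Over the 183 genes r was −0.166 to 0.537, with 29 of 45 above 0.1.

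KRAB boxes were scored on translated GENCODE transcripts with a 40-residue profile learned from the family (cut at 0 bits), and fingers were counted by their cysteine and histidine spacing. Genes are described at length by a rule: those called, the most abundant, those with the highest change at 5 CPM or more, those with known roles, and some of the 4 with the smallest p for etoposide averaged, at 40 or in the interaction. Not all genes that the rule allows are described. The genes and lists were chosen with earlier results of these data known.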

Additional observations from a re-analysis of the deposited data

How the results depend on the processing

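The negative median from 0 to 40 kept its direction in each arm and averaged under all settings run, and no called value changed sign. The number of calls moved with the settings. With the replicate block 4 genes were called with DMSO, 5 with etoposide and 16 averaged, and the block changed no other call of these genes. Without a filter on low counts, 1 was called with DMSO and 3 averaged (ZNF574, ZNF526 and ZNF230). DESeq2 called 2 with etoposide, against 0.479% of all tested genes. Without replicate 3 in all groups the averaged comparison called ZNF574 alone, and 1 with DMSO and 0 with etoposide, while the median difference between arms at 40 was 0.048. Leaving out 1 library gave 1 to 2 calls with DMSO (2 to 4 with the block), 0 to 1 with etoposide (1 to 3) and 3 to 7 averaged (10, 11, 12, 13, 14 or 15). The lowest of these, 3, came without replicate 2 of DMSO at 40 or replicates 2 or 3 of etoposide at 40. The same fits gave medians of −0.214 to −0.134 with DMSO, −0.277 to −0.198 with etoposide (−0.198 without replicate 3 at 0) and −0.256 to −0.177 averaged. Chosen after seeing the data, leaving out both libraries that stood apart gave 1 call with DMSO and 4 averaged, and with the block 7 with etoposide and 15 averaged. The GC curve, also added later, gave 1 call with DMSO against 0.508% of all tested genes. It gave medians of −0.177 with etoposide and of 0.052 for etoposide minus DMSO at 40, where the main median was −0.013. With the block as well there were 6 calls with DMSO, 4 with etoposide and 20 averaged, against 1.64%, 1.24% and 2.81% of all tested genes. The same 2 medians were then −0.189 and 0.049. A level of 0.5 CPM would have chosen 198 genes and one of 5 CPM 115, whose averaged median was −0.191. The causes were not tested. Of the 183 genes 68 had a mean under 5 CPM, where 3 counts stood for 0.259 to 0.377 CPM.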

Other observations

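Some zinc finger genes of chromosome 19 have symbols that fall outside the rule. Of 15 such genes (ZNF585A, ZNF780A, ZFP30, ZSCAN22, MZF1 and others), 10 had a negative and 5 a positive change from 0 to 40 averaged over both arms, with a median of −0.232. ZFP36 alone was called, from 0 to 40 averaged, at −2.88 on the log2 scale (SE 0.415, adjusted p = 0.0016 by edgeR). It was also called with DMSO alone (adjusted p = 0.0288 by edgeR) and, with the block, in both arms. It is counted among the 10 negative genes. It also stands in the list of short-lived messages. Its symbol is shared by name only, since it encodes a CCCH protein that binds AU-rich RNA, and it was singled out after its values were seen. Of the C2H2 genes, ZSCAN22 had −0.49 (SE 0.183, adjusted p = 0.582) and MZF1, a SCAN domain factor and with 27.3 CPM the most abundant of the 15, had 0.07 (SE 0.134).

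The other genes of chromosome 19 had opposite median changes from 0 to 40 in the arms, −0.054 with DMSO and 0.089 with etoposide, and their transcripts have a median GC content of 59.7% against 47.9% over all tested genes. With the GC curve taken out, these medians were 0.02 and 0.044.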
